A study of Mus musculus with 2 samples.

Results

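Sd2 is a cluster of a single-cell RNA-seq map of the adult mouse testis. Here it is named for the earliest round spermatids, the cells that follow the second meiotic division. Its members were taken by the cluster label of the deposited cell table, with the wild-type (WT) and Tex13a knockout (KO) libraries kept apart. This gave 910 of 12408 cells, 321 of 5170 in WT and 589 of 7238 in KO. Each library was 1 pool of testicular cells from 3 adult C57BL/6 males (C57BL/6N in the study's methods) of 10-12 weeks, captured in microwells, and the KO mice lacked the whole reading frame of Tex13a, an X-linked gene of male germ cells, after CRISPR/Cas9 editing. The cell table holds 13 clusters in all: spermatogonia (Sg), spermatocytes (Sc1 and Sc2), Sd1, which the study treats as spermatocytes mixed with early spermatids, and Sd2 to Sd10, which it treats as haploid.

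A round spermatid is a haploid cell that has left meiosis and will become a sperm without dividing again. In its first steps it begins to build the acrosome, the enzyme-filled vesicle that caps the sperm head, lays down the axoneme of the tail, and starts to transcribe genes of the X and Y chromosomes that were silenced during meiosis. Neighbouring haploid cells share cytoplasm through bridges, so many X-linked transcripts reach Y-bearing cells as well. Protamines and transition proteins, which replace the histones, belong to later spermatids.

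Sd2 held 2737671 UMIs (unique molecules counted) in WT and 5644161 in KO, with a median of 6603 and 6698 UMIs and 2623 detected genes per cell in both libraries. The share of all cells was 6.21% in WT (exact binomial 95% interval 5.57 to 6.90) and 8.14% in KO (7.52 to 8.79). Median depth was 7196 and 8647 UMIs in Sd1 and 7179 and 7625 in Sd3, so Sd2 was the shallowest of the 3 clusters in each library. The libraries shared 0 cell barcodes. Levels are given as CPM, the UMIs of a gene summed over the cells of a cluster, per 1000000 UMIs of those cells. With 1 library per genotype there is no replicate and no test, all intervals cover counting error only, and genotype and library cannot be told apart. The clusters were made from these same counts, so a difference between Sd2 and a neighbouring cluster is a description of what separates them.

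The targeted gene was examined first. Tex13a has 7 candidate rows in the count matrix. That with 0 UMIs in KO was chosen for this reason, so the 0 does not check the labels. In WT this row held 12.4 CPM in Sd2 (34 UMIs in 27 of 321 cells, Poisson 95% interval 8.60 to 17.4), between 3.03 CPM (1.73 to 4.91) in Sd1 and 30.7 CPM (26.0 to 36.0) in Sd3. In KO Sd2, 0 of 5644161 UMIs in this row allows a level of up to 0.654 CPM by the Poisson 95% interval. As the row was chosen for its 0, this limit does not measure Tex13a in KO. The other candidate rows held from 3 to 504 UMIs in KO Sd2.

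Acrv1 and the markers of the end of meiosis placed Sd2 between Sd1 and Sd3. Whether every Sd2 cell had finished the meiotic divisions was not tested. Acrv1, which encodes a protein of the acrosomal matrix, stood at 21.0, 251 and 679 CPM in Sd1, Sd2 and Sd3 of WT and at 18.4, 276 and 706 CPM in KO. A UMI of Acrv1 was found in 74.1% of WT Sd2 cells (69.0 to 78.8) and 78.4% of KO Sd2 cells (74.9 to 81.7), against 12.7% and 14.7% in Sd1. In Sg, which should lack the transcript, the share was 11.9% and 11.4% at median depths of 6133 and 5859 UMIs, so the Sd1 share lay at the background level. After every cell was thinned to 3000 UMIs the Acrv1 share was 48.9% and 54.7% in Sd2, 5.46% and 5.68% in Sd1, and 4.11% and 6.93% in Sg. Markers of the end of meiosis went the other way. Ndc80, a subunit of the outer kinetochore, was found in 50.7% of WT Sd1 cells and 10.9% of WT Sd2 cells (59.6% and 15.8% in KO), and in 0.543% and 0.360% of Sd10 cells, which should lack it. Aurka, the kinase Aurora A, was more persistent, with a UMI in 81.6% and 80.0% of Sd2 cells and 56.7% and 55.5% after thinning. Of the protamine and transition protein genes, Prm1 stood at 3759 CPM in WT Sd2, close to its 3910 CPM in Sd1 and 3828 CPM in Sd3, and far below its 38041 CPM in Sd10. Prm1 also stood at 21336 CPM in WT Sg, which should lack it, so its level in Sd2 lay at or below background. Prm3 was not level, with 161, 296 and 887 CPM in Sd1, Sd2 and Sd3 of WT and 153, 308 and 843 CPM in KO. In WT Sg it stood at 820 CPM. Of 37 listed late spermatid genes read against Sd1, 12 were at least 2-fold higher in Sd2 in both libraries and 0 lower. Among all genes read these shares were 16.2% and 4.29%. Spaca1, Spaca7, Izumo1, Lyzl4, Lyzl6, Tssk1 and Tssk2, also listed for early round spermatids, followed the order of Acrv1. Zpbp2 and Tex101 of that list went the other way. In Sd1, Sd2 and Sd3 of WT they stood at 1022, 935 and 679 CPM and at 53.7, 48.2 and 33.5 CPM. The pachytene marker Sycp1 stood at 147, 175 and 228 CPM in WT. Ccnb2, of the end of meiosis, was still found in 93.8% and 93.0% of Sd2 cells. Of the markers listed for mid round spermatids, Tex36 was found in 76.6% of WT and 72.2% of KO Sd2 cells. Cypt1 of that list stood at 35.6, 112 and 351 CPM in Sd1, Sd2 and Sd3 of WT, and Hemgn at 2.27, 6.94 and 3.86 CPM. Sun5 and Tssk5 were not assigned to a row. So only some of the markers go with the name of the cluster.

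**Figure D1:**
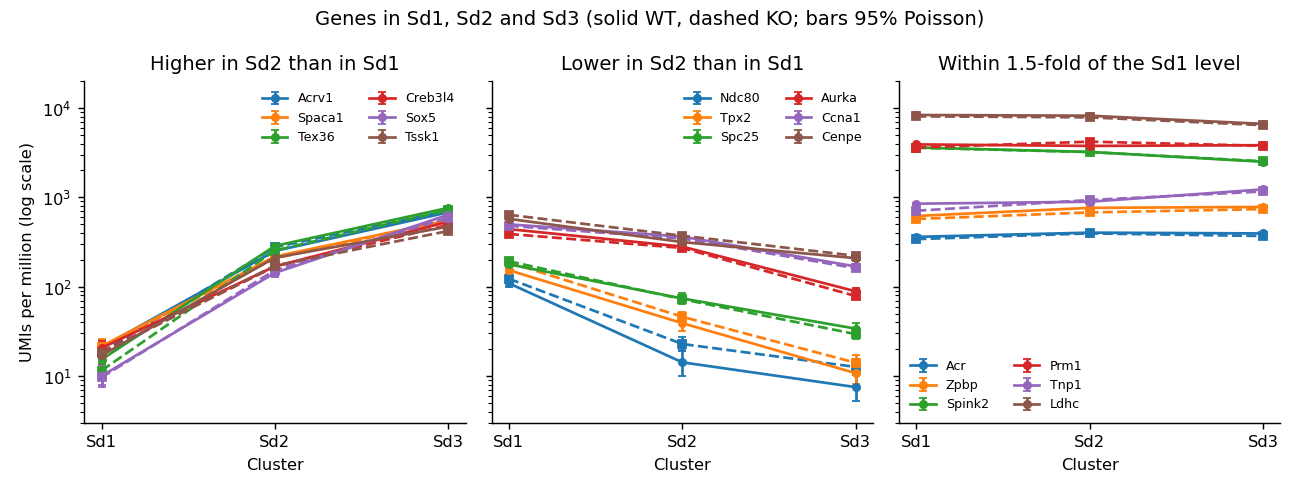
Levels of 18 genes in Sd1, Sd2 and Sd3, in CPM on a log axis, with WT as solid lines and circles, KO as dashed lines and squares, and Poisson 95% intervals as bars. The left panel holds genes that stood higher in Sd2 than in Sd1 (Acrv1 from 21.0 to 251 CPM in WT), the middle panel genes that stood lower (Ndc80 from 109 to 14.2 CPM), and the right panel genes within 1.5-fold of their Sd1 level (Acr from 361 to 403 CPM).

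More genes stood higher than lower in Sd2 against Sd1. Of 4054 genes with at least 50 UMIs over both clusters in each library, 657 (16.2%) were at least 2-fold higher in Sd2 in both libraries and 174 (4.29%) at least 2-fold lower. The other 1422 of 5476 named genes had too few UMIs to be read. The median log2 ratio of Sd2 to Sd1 over all genes read was -0.01 in WT and -0.00 in KO, so the typical gene stood level.

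The genes that stood furthest above Sd1 were nearly silent there. Tex38, a testis-expressed gene, stood at 3.97, 98.6 and 374 CPM in Sd1, Sd2 and Sd3 of WT and at 3.93, 102 and 350 CPM in KO, a 24.1-fold and 25.7-fold step from Sd1 to Sd2. Etfb, the beta subunit of the electron transfer flavoprotein, was 30.6-fold higher in WT (1.13 to 38.4 CPM) and 19.2-fold higher in KO (1.88 to 37.2 CPM), and the WT value rests on 6 UMIs in Sd1. Kcne3, an accessory subunit of potassium channels, stood at 3.97 and 80.7 CPM in WT and 3.44 and 74.9 CPM in KO. All 3 genes were present at under 4 CPM in Sd1 of either library. The homeobox gene Nkx2-6 stood 17.6-fold and 22.2-fold above Sd1, and Zp3r, which encodes an acrosomal protein that binds the zona pellucida, 17.0-fold and 22.9-fold. Tex36, 4921509A06Rik, 1700029J07Rik, 1700007K09Rik, Lurap1, the long noncoding RNA Gm20268 and Far1os, named as antisense to Far1, completed the 12. Whether the counting used strand is not given in the sources used here, so reads of Far1os and of a gene on the other strand cannot be told apart.

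The 12 genes furthest below Sd1 each had their highest level of the 13 clusters in Sg, Sc1, Sc2 or Sd1 in both libraries. These 12 were taken as lower than in Sd1, which favours an earlier peak. D030056L22Rik led them, with 154 CPM in Sd1 and 18.6 CPM in Sd2 of WT and 153 and 16.5 CPM in KO. Pou5f2, a POU-domain transcription factor, stood at 55.6 and 4.38 CPM in WT and 57.2 and 7.09 CPM in KO. Kif20b, a kinesin of dividing cells, stood at 175 and 21.2 CPM in WT and 199 and 26.0 CPM in KO, and Mphosph8, a reader of methylated histone H3, at 514 and 88.4 CPM and at 499 and 76.2 CPM. All 4 were at least 5-fold lower in Sd2 than in Sd1 of each library. The remaining 8 were Ube2t, Rassf1, Bcl2l12, Tomm34, Pcbp1, Ccdc112, Mllt10 and Ndc80.

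Acrosome genes stood above their Sd1 level as a list. Of 45 listed genes 37 could be assigned to a row and 35 were read against Sd1. Of these, 19 were at least 2-fold higher in Sd2 in both libraries and 0 lower, beside 16.2% and 4.29% of all genes. Their median log2 ratio was 2.12 in WT and 2.21 in KO. Spaca3, a lysozyme-like acrosomal protein, stood at 23.6, 317 and 928 CPM in Sd1, Sd2 and Sd3 of WT and at 16.9, 290 and 856 CPM in KO. Spaca1, an acrosomal membrane protein needed for a normal acrosome, stood at 21.6, 218 and 553 CPM in WT and 21.3, 207 and 554 CPM in KO. Izumo1, the sperm protein that binds the egg receptor at fusion, stood at 4.92, 63.6 and 152 CPM in WT. Other members differed little between the clusters. Acr, the acrosomal protease acrosin, stood at 361 CPM in WT Sd1, against 403 CPM in Sd2 and 394 CPM in Sd3. Zpbp, a zona pellucida binding protein, stood at 618, 762 and 781 CPM, and the protease inhibitor Spink2 at 3607, 3218 and 2500 CPM. Against Sd3, 22 of 37 acrosome genes were at least 2-fold lower in Sd2 and 0 higher, beside 17.1% and 5.02% of all genes, with medians of -1.26 in WT and -1.40 in KO. Some members could be read only because they are high in Sd2 or Sd3, and summed over all 37 the list stood at 9726, 11760.0 and 16881 CPM in Sd1, Sd2 and Sd3 of WT and at 9664, 11607 and 16592 CPM in KO.

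The meiotic division genes stood below Sd1 as a list. Of 38 listed genes 20 could be assigned to a row, all 20 were read, and the median log2 ratio of Sd2 to Sd1 was -0.77 in WT and -0.68 in KO. Spc25, Ndc80, Incenp, Tpx2 and Knl1 were at least 2-fold lower in both libraries, 5 of 20 beside 4.29% of all genes, all of them parts of the kinetochore, the chromosomal passenger complex or the spindle. Tpx2, the spindle activator of Aurora A, stood at 153, 39.1 and 10.8 CPM in Sd1, Sd2 and Sd3 of WT and at 187, 46.1 and 14.1 CPM in KO. Aurka, Ccna1, the meiotic cyclin A1, and Cdc20, an activator of the anaphase-promoting complex, were at least 2-fold lower only at the next step, from Sd2 to Sd3. Aurka stood at 440, 281 and 88.8 CPM in WT, and Ccna1 at 498, 363 and 169 CPM. Rec8, the meiotic cohesin subunit, was the 1 list member that stood at least 2-fold higher in Sd2 than in Sd1, with 7.19, 40.2 and 56.9 CPM in WT and 4.09, 37.2 and 57.6 CPM in KO. Of the prophase list, 39 genes of which 14 were read against Sd1, the axial element gene Sycp3, its partner Hormad1 and the checkpoint kinase Atr were at least 2-fold lower in Sd2, and Syce3, a synaptonemal complex gene, was higher, beside 4.29% and 16.2% of all genes.

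The X chromosome held the largest share of genes higher in Sd2 than in Sd1. Over all 139 X genes assigned to a row, whether read or not, X transcripts made up 0.0892% of UMIs in WT Sd1 (0.0867 to 0.0918), 0.342% in Sd2 (0.336 to 0.349) and 0.654% in Sd3 (0.647 to 0.661). In KO the shares were 0.0776%, 0.318% and 0.612%. The step from Sd1 to Sd2 was 3.84-fold in WT and 4.10-fold in KO, and the step from Sd2 to Sd3 was 1.91-fold and 1.92-fold. Sc2, the spermatocytes before Sd1, held 0.0885% and 0.0678%, and the spermatogonia 0.759% and 0.790%. In WT the intervals of Sc2 and Sd1 overlapped, and in KO Sd1 lay above Sc2. Of 58 X genes read against Sd1, 44 (75.9%) were at least 2-fold higher in Sd2 in both libraries and 0 lower. Of 3773 genes read on other chromosomes 14.97% were higher, and single autosomes ranged from 12.1% to 22.9%. The other 81 X genes had too few UMIs, and some of the 58 could be read only because they are high in Sd2. How far this filter raised the X share of genes was not tested.

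**Figure D2:**
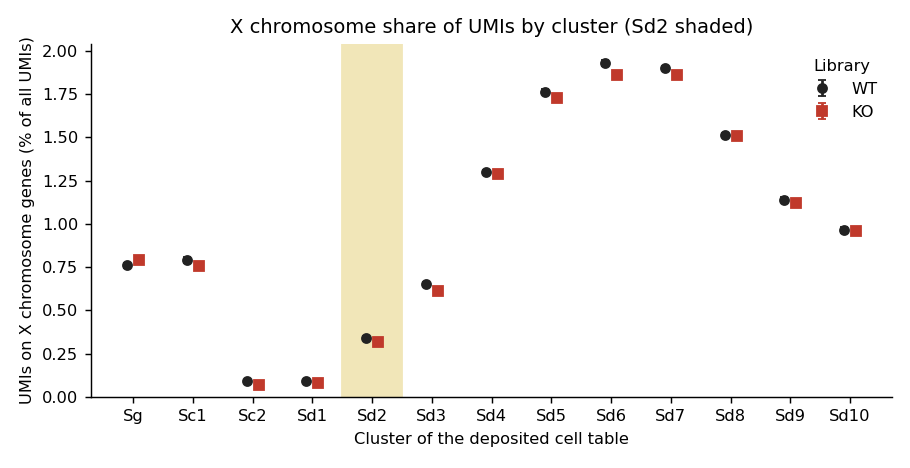
Share of all UMIs that fell on 139 X chromosome genes in each of the 13 clusters, in percent, for WT (circles) and KO (squares), with exact binomial 95% intervals that are mostly smaller than the symbols. The share was lowest in Sc2 and Sd1, at or under 0.0892%, stood at 0.342% and 0.318% in Sd2 (shaded), and reached 1.93% and 1.86% in Sd6.

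Most of the 44 X genes higher in Sd2 than in Sd1 had their highest level in later clusters. Of the 44, 37 had their highest level of all clusters in Sd3 or later in both libraries, and 4 in Sg or Sc1, among them the ubiquitin ligase gene Cul4b. The 44 were taken as higher than in Sd1, which favours a later peak. The same split is not given here for all genes higher in Sd2, so it is not shown to be particular to X genes. Tsga8, a spermatid nuclear protein gene, gave the most X UMIs in both libraries and stood at 97.6, 457 and 814 CPM in Sd1, Sd2 and Sd3 of WT and at 83.0, 382 and 727 CPM in KO. Rpgr, a protein of the base of cilia, stood at 3.97, 43.8 and 121 CPM in WT and 1.88, 40.8 and 123 CPM in KO. The 5 most abundant X genes made up 29.9% of X UMIs in WT Sd2 and 30.1% in KO, and without them the X share was still 3.72-fold and 3.85-fold higher than in Sd1. 3 Y chromosome genes were assigned to a row and none could be read against Sd1.

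Single Sd2 cells lay between those of Sd1 and Sd3 with overlap at both ends. The median share of X transcripts per cell was 0.311% in WT and 0.314% in KO, with 10th to 90th percentiles of 0.1503% to 0.537% and 0.139% to 0.476%. In WT, 21.8% of Sd2 cells were at or below the 90th percentile of Sd1, and 24.6% at or above the 10th percentile of Sd3. In KO these shares were 19.0% and 20.4%. An X UMI was found in every Sd2 cell, 0 of 321 and 0 of 589 having none, while 28 of 513 and 50 of 1057 Sd1 cells had none. Taken as 3 divided by the number of cells, the 0 allows a share of up to 0.935% and 0.509%. For acrosome genes the median per cell was 1.16% in WT and 1.15% in KO, and for meiotic division genes 0.397% and 0.398%.

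**Figure D3:**
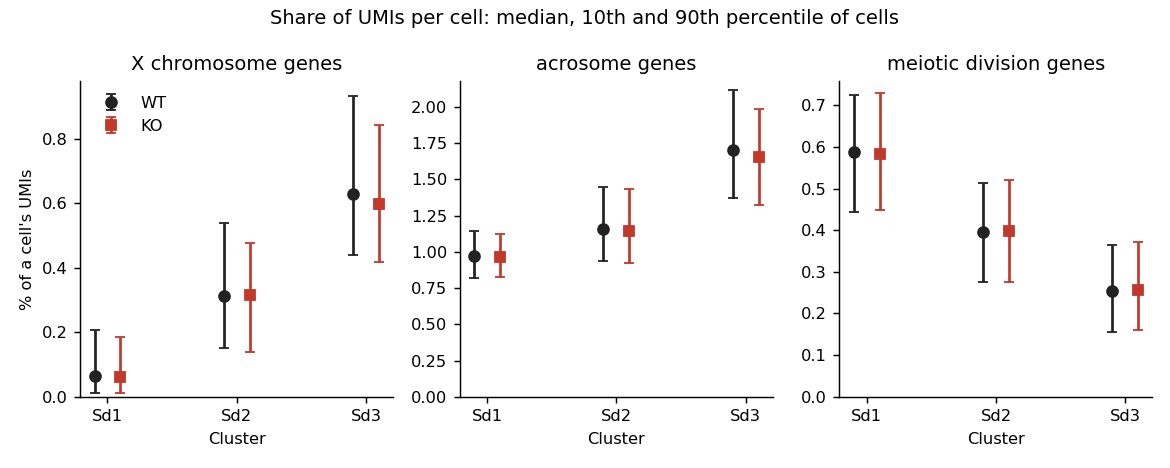
Percent of each cell's UMIs on X chromosome, acrosome and meiotic division genes in Sd1, Sd2 and Sd3, as the median (point) with the 10th and 90th percentile of cells (bars), for WT (circles) and KO (squares). In each panel the median of Sd2 lies between those of Sd1 and Sd3 (for X genes in WT 0.0657%, 0.311% and 0.629%), and the bars of neighbouring clusters overlap.

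The regulators of the spermatid programme differed from Sd1 about as often as all genes. Of 18 regulator genes read, Sox5, Chd5 and Creb3l4 were at least 2-fold higher than in Sd1 in both libraries and Mybl1, the transcription factor A-MYB of pachytene spermatocytes, was lower (159 and 49.3 CPM in WT), beside 16.2% and 4.29% of all genes. Sox5, an HMG-box transcription factor, stood at 10.02, 143 and 638 CPM in Sd1, Sd2 and Sd3 of WT and at 9.65, 153 and 589 CPM in KO. Creb3l4, a membrane-bound bZIP factor, stood at 20.6, 169 and 534 CPM in WT and 18.5, 168 and 491 CPM in KO, and Chd5, a chromatin remodeller needed for histone removal, at 11.3, 82.6 and 263 CPM in WT. Crem, the master activator of postmeiotic genes, was not past 2-fold, with 289, 422 and 637 CPM in WT and 290, 446 and 608 CPM in KO. Among 15 kinase and signalling genes read, 6 were higher, namely Tssk1, Tssk2, Tssk3 and Tssk4, their substrate Tsks, and the sperm phospholipase Plcz1, and 0 were lower, beside 16.2% and 4.29% of all genes. Tssk1 stood at 17.0, 211 and 470 CPM in WT and 18.0, 172 and 420 CPM in KO.

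Of the tail, energy and chromatin lists only some members differed by 2-fold. Of 57 axoneme and flagellar genes read against Sd1, 8 were higher (Dnah3, Tekt2, Rsph10b, Spag6, Cfap58, Ropn1, Ift88 and Armc4) and 0 lower. Of 19 energy genes 2 were higher and 1 lower, and of 10 histone genes 2 were higher and 0 lower. These counts were near the 16.2% higher and 4.29% lower of all genes. Spag6, of the central apparatus of the axoneme, stood at 22.1, 247 and 544 CPM in WT and 16.4, 244 and 505 CPM in KO, while Meig1, among the most abundant genes of Sd2, stood level at 6688 and 6544 CPM in WT. Of the energy genes, Slc2a3, the glucose transporter GLUT3, stood at 152, 43.5 and 8.54 CPM in Sd1, Sd2 and Sd3 of WT, whereas Slc16a7, the monocarboxylate transporter MCT2, stood at 30.1, 106 and 234 CPM and the sperm aldolase Aldoart2 at 21.9, 131 and 286 CPM. All 3 were past 2-fold in both libraries at both steps. Hils1, the linker histone of spermatids, stood at 65.1, 309 and 1192 CPM in WT and 50.6, 274 and 1158 CPM in KO, and Hist1h4a was the other histone gene past 2-fold. Of 68 ribosomal protein genes, 0 were past 2-fold against Sd1, and of 27 proteasome genes also 0.

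Promoters of genes higher in Sd2 were read for letters bound by known spermatid regulators. The first is GTTGCC, the core of the X-box bound by RFX factors, and the other is TGACGTCA, the CRE bound by CREM, each searched on both strands from 250 bases before to 50 bases after a gene's start in the RefSeq table of GRCm38.p6. Of 657 genes higher in Sd2 than in Sd1, 488 had a promoter there and 22.3% of these held GTTGCC, against 14.1% of 128 genes lower in Sd2, 17.9% of 3131 genes read and 14.1% of all 27025 genes. The CRE was held by 4.51%, 3.13%, 4.09% and 2.03% of the same sets. A match is a description and not a binding site. The promoters of 4 genes higher in Sd2 than in Sd1, chosen after their values were seen because each holds GTTGCC, are shown 5' to 3' as 300 bases of GRCm38.p6, with GTTGCC or its reverse complement GGCAAC in capitals.
Tex36 (chr7:133602066-133602365, minus strand): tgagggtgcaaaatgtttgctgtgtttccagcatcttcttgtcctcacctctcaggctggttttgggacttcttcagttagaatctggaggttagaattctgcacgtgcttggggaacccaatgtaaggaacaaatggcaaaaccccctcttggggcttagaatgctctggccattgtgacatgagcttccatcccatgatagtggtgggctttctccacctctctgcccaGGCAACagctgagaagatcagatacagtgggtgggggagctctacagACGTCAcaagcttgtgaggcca
Sox5 (chr6:143947057-143947356, minus strand): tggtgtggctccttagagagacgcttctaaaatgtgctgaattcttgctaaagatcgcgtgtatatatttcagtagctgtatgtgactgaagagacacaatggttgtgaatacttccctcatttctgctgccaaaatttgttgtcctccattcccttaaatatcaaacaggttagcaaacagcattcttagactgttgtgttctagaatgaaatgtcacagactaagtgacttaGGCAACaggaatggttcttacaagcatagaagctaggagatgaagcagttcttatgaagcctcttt
Spag6 (chr2:18698772-18699071, plus strand): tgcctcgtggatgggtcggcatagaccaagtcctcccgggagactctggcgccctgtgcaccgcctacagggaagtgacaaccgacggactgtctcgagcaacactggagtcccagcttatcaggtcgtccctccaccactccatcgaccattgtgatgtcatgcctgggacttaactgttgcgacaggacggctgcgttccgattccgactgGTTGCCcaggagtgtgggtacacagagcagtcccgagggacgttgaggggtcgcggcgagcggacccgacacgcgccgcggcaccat
Hils1 (chr11:94967343-94967642, plus strand): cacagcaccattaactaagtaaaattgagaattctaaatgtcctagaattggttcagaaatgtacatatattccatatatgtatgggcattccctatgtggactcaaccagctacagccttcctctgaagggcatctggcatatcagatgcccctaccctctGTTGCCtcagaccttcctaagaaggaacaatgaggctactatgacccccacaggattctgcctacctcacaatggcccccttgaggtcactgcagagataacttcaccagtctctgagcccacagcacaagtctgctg
The match begins 19 bases before the start of Tex36, 16 before that of Sox5, 37 before that of Spag6 and 88 before that of Hils1. Further capitals in Tex36, 28 bases after its start, mark ACGTCA, the reverse complement of the CRE part TGACGT. Tex36 stood at 15.3, 286 and 762 CPM in Sd1, Sd2 and Sd3 of WT and at 11.5, 254 and 720 CPM in KO.

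Against Sd3, more genes stood lower than higher in Sd2. Of 4202 genes read, 720 (17.1%) were at least 2-fold lower in Sd2 than in Sd3 in both libraries and 211 (5.02%) at least 2-fold higher. The median log2 ratio of Sd2 to Sd3 over all genes read was 0.16 in WT and 0.17 in KO, so that a gene at a ratio of 0 stood below the typical gene. The 12 genes furthest below Sd3 stood at or under 31.8 CPM in Sd2 of each library. Tubb6, a beta tubulin, stood at 8.04 CPM in Sd2 and 137 CPM in Sd3 of WT and at 9.57 and 121 CPM in KO. Mbd3l1, a methyl-CpG-binding-like protein of postmeiotic cells, stood at 31.8 and 294 CPM in WT and 28.9 and 284 CPM in KO, and Dscc1, a subunit of an alternative clamp loader, at 9.13 and 117 CPM and at 11.5 and 111 CPM. BC048562, 4930432E11Rik, Ccdc27, Nell1os, 1700023F06Rik, 4930513D17Rik, 1700025K24Rik, 1700003P14Rik and 4930461G14Rik completed the 12.

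Genes that Sd2 still held and Sd3 had largely lost were of several kinds. Cd320, the receptor for transcobalamin, stood at 449, 273 and 53.1 CPM in Sd1, Sd2 and Sd3 of WT and at 442, 270 and 54.6 CPM in KO. Pabpc6, a poly(A)-binding protein gene of the testis, stood at 2746, 1630 and 383 CPM in WT and 2939, 1746 and 452 CPM in KO, and Smarca4, the ATPase BRG1 of a chromatin remodelling complex, at 167, 98.3 and 25.8 CPM in WT. In WT each was nearer, in CPM, to its Sd1 level than to its Sd3 level. The others were Nudt16l1, Eif1b, Diablo, Glipr1l2, Jagn1, Slc2a3, Zmynd10, Pes1 and the mitochondrial mt-Nd1. Among 33 heat shock and cochaperone genes, the endoplasmic reticulum chaperones Hspa5 (975 and 353 CPM in Sd2 and Sd3 of WT, 1185 and 425 CPM in KO) and Hsp90b1 (1294 and 504 CPM, 1461 and 578 CPM) were at least 2-fold higher in Sd2, and Dnajb7 and Dnajc5b at least 2-fold lower, beside 5.02% and 17.1% of all genes.

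Mitochondrial messages stood higher in Sd2 than in Sd3, and the mitochondrial ribosomal RNAs were within 2-fold. Of 8 mitochondrially encoded genes read against Sd3, 6 were at least 2-fold higher in Sd2 in both libraries, beside 5.02% of all genes. They were mt-Nd1, mt-Nd2, mt-Nd4, mt-Nd5, mt-Co1 and mt-Cytb. The 12S and 16S RNA genes, mt-Rnr1 and mt-Rnr2, were the other 2, with 614 and 513 CPM and 1785 and 1591 CPM in Sd2 and Sd3 of WT. A further 22 of the 30 had too few UMIs to be read. Against Sd1, 0 of 9 genes read were at least 2-fold higher or lower. All 30 together made up 0.529% of UMIs in WT Sd2 and 0.564% in KO, against 0.541% and 0.565% in Sd1 and 0.304% and 0.380% in Sd3. mt-Nd1 stood at 1180, 775 and 183 CPM in Sd1, Sd2 and Sd3 of WT and at 989, 706 and 188 CPM in KO.

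Few genes stood apart in Sd2 from both neighbours. Of 3929 genes read in both comparisons, 75.8% in WT and 77.3% in KO had an Sd2 level between those of Sd1 and Sd3. Only 24 (0.611%) were at least 1.5-fold higher in Sd2 than in each neighbour in both libraries, and 4 (0.102%) at least 1.5-fold lower. Rilpl2, a protein of ciliary membrane transport, stood at 29.9, 57.7 and 22.0 CPM in Sd1, Sd2 and Sd3 of WT and at 29.2, 58.6 and 18.4 CPM in KO. Chgb, the secretory granule protein chromogranin B, stood at 31.8, 60.6 and 21.5 CPM in WT and 32.3, 59.9 and 16.6 CPM in KO. Pifo, a ciliary protein, stood at 105, 219 and 132 CPM in WT and 115, 245 and 146 CPM in KO. Each of these 3 had its highest level of the 13 clusters in Sd2 of both libraries, as did 179 of the 3929 genes.

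**Figure D4:**
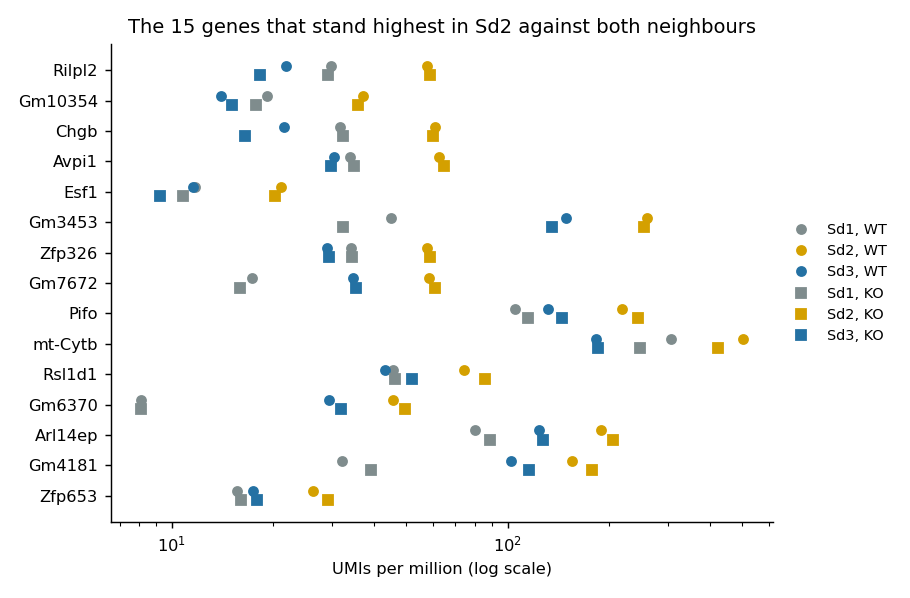
Levels of the 15 genes that stood furthest above both neighbours, in CPM on a log axis, in Sd1 (grey), Sd2 (yellow) and Sd3 (blue) of WT (circles) and KO (squares). In each gene both yellow points lie to the right of the others, for example 57.7 against 29.9 CPM in Rilpl2 and 26.3 against 17.5 CPM in Zfp653, both in WT.

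Of the other named genes of this kind, Esf1 and Rsl1d1 encode nucleolar proteins and had their highest level before Sd1, in Sg or Sc1, as did Zfp326, Zfp653 and mt-Cytb. mt-Cytb stood at 307, 503 and 184 CPM in WT and 249, 424 and 186 CPM in KO. Gm3453, Gm10354, Gm6370, Gm4181 and the pseudogene Gm7672 carry names of predicted genes, and whether their reads were split with similar copies was not tested. Gm3453 stood at 45.0, 259 and 149 CPM in WT. Avpi1 and Arl14ep completed the 15. The 4 genes lower than both were Brca2, a recombination gene, the condensin subunit Smc2, the centrosomal gene Pibf1 and Gm884. Smc2 stood at 235, 64.3 and 159 CPM in WT and 242, 83.3 and 162 CPM in KO, and Brca2 at 34.8, 14.98 and 54.9 CPM and at 49.2, 22.1 and 53.2 CPM. Cenpj, Rhobtb3, Rnf168 and Sltm came next and did not reach 1.5-fold at all 4 ratios.

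How far genes had gone by Sd2 depended on the scale. Among 633 genes read that were at least 4-fold higher in Sd3 than in Sd1 in both libraries, the median Sd2 level had covered 32.0% of the CPM difference in WT and 32.2% in KO, with quartiles of 21.9% to 44.2% and 22.5% to 43.6%. Among 163 genes at least 4-fold lower in Sd3, it had covered 67.7% and 70.2%, with quartiles of 58.0% to 79.8% and 59.6% to 81.0%. On the log2 scale the order was the opposite, with medians of 63.0% and 63.8% for the genes higher in Sd3 and 45.3% and 47.5% for those lower.

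Between WT and KO Sd2 cells, of 4159 genes with at least 50 UMIs in the libraries together, 8 (0.192%) were at least 2-fold higher in KO and 7 (0.168%) at least 2-fold lower. These counts depended on the setting, with 61 and 40 after cells were thinned to 3000 UMIs and 2 and 0 at a minimum of 200 UMIs. The median log2 ratio of KO to WT was -0.01, with quartiles of -0.14 and 0.15. No acrosome, meiotic division, regulator, flagellar or X chromosome gene read was past 2-fold. Their medians were -0.04 over 37 acrosome genes, -0.02 over 20 meiotic division genes, 0.09 over 57 flagellar genes and -0.11 over 76 X genes. Of the prophase list Meiob, a gene of meiotic recombination, was past 2-fold, with 7 UMIs in WT and 43 in KO (log2 ratio 1.53). Gm36099, Klk1b7-ps and Nsd1 were also higher in KO, and C1d, Elp2, Mrpl14 and Sparc lower, all of them under 100 UMIs in the libraries together. Of 68 ribosomal protein genes, 67 had a ratio below 0, with a median of -0.14 beside -0.01 over all genes read. Their median lay below 0 in each of the other 12 clusters as well (-0.27 to -0.03). The median over all genes in those clusters was -0.04 to 0.07.

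**Figure D5:**
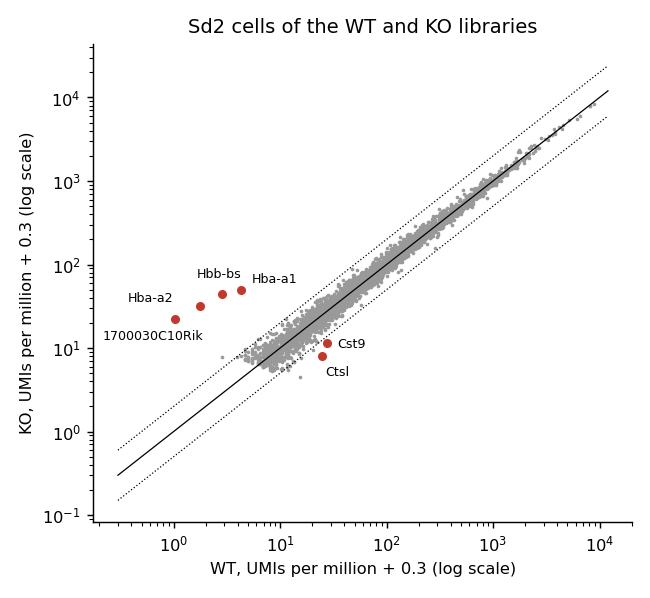
Level of each gene read in Sd2 of WT (horizontal) and KO (vertical), in CPM plus 0.3 on log axes, with the line of equal level and dotted lines at 2-fold. Nearly all genes lie between the dotted lines, and the red points are globin genes, 1700030C10Rik, Ctsl and Cst9.

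Among genes with at least 100 UMIs, those furthest apart included markers of other cells. The globin genes Hba-a1, Hba-a2 and Hbb-bs stood at 48.9, 31.9 and 43.9 CPM in KO Sd2 and 4.02, 1.46 and 2.56 CPM in WT, and 674 of their 704 KO UMIs came from 1 cell. Without the 8 KO and 9 WT cells that held at least 10 UMIs of globin or of Sertoli genes, none of these 3 was 2-fold higher in KO. The log2 ratios of Hba-a1, Hba-a2 and Hbb-bs were then -2.02, -0.915 and 0.54. They rest on 9, 4 and 7 UMIs in WT and 4, 4 and 21 in KO. 1700030C10Rik, a long noncoding RNA, had 2 UMIs in WT and 125 in KO (log2 ratio 4.71, counting interval 3.04 to 7.98), and its ratio was 3.36 in Sd1 and 5.88 in Sd3. Kdm5a, a histone H3 demethylase, and the noncoding Gm16279 were next at 0.98 and 0.94. Lowest in KO were Ctsl, Cst9 and Cst12, all 3 of the Sertoli list, and Cst13, 1700061F12Rik and Gm20878. Ctsl, the protease cathepsin L, stood at 24.5 CPM in WT and 7.80 CPM in KO (log2 ratio -1.64, -2.23 to -1.08), and without those cells at 17.1 and 3.11 CPM. Gm20878 stood at 285 and 159 CPM, a log2 ratio of -0.84, beside -0.71 in Sd1 and -0.78 in Sd3.

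Transcripts of somatic cells were few in Sd2 but not absent. The 7 Sertoli genes assigned to a row, of 20 listed, summed to 92.4 CPM in WT and 44.6 CPM in KO, more than the 31.02 and 5.40 CPM of Sd1 and the 24.4 and 7.69 CPM of Sd3. They were found in 57 of 321 and 44 of 589 cells, 9 and 7 of which held at least 10 such UMIs, and Drd4 was at 0 in both libraries. The Leydig list stood at 13.1 and 12.05 CPM over 4 genes, with Hsd17b3 at 0 in WT, and the peritubular and vascular list at 4.38 CPM in WT and 0 in KO over 3 genes. Of the germ cell markers before meiosis, Kit had 1 UMI in each library and Stra8 7 and 24. The part of these transcripts in the differences between Sd2 and its neighbours was not tested, and without the cells with at least 10 globin or Sertoli UMIs 643 genes were higher and 177 lower in Sd2 than in Sd1, beside 657 and 174 with all cells.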

How the data were processed

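Testis cells of 1 WT and 1 Tex13a-KO library were read, each pooled from 3 testes of 3 mice. Per the labels and the study's methods, the authors aligned reads to mm10 with STAR 2.5.3a, counted them on Ensembl 92 genes with featureCounts 1.6.2 and filtered and clustered the cells in Seurat 3.2.3. The deposited counts are raw UMI counts of these cells, 45568532 in WT and 67734689 in KO. The deposited percent of mitochondrial UMIs per cell served to place the gene symbols. Groups come from the library column of the cell table and Sd2 from its cluster column.

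The 25065 symbols are fewer than the 26758 matrix rows. The 30 mt- symbols were placed so that their sums give the deposited percent in 12408 of 12408 cells, and elsewhere only rows seen in fewer than 5 cells could lack a symbol. Only the 5476 symbols left with a single candidate row were named, and their rows hold 84.9% of Sd2 UMIs. RefSeq gave a chromosome for 4985.

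UMIs were summed per library and cluster. Log2 ratios carry a prior of 1 UMI, shared by depth. Genes with at least 50 UMIs over the clusters compared, in each library, were read. No test was possible with 1 library per genotype. Intervals are exact Poisson or Clopper-Pearson 95% intervals for counting error only. No doublet caller was run. Named genes are the 12 highest and lowest against each neighbour by the smaller of the WT and KO ratios with at least 100 UMIs, the 15 highest and 8 lowest against both, the 6 highest and lowest in KO against WT, and list members. Members and lists were chosen with earlier results of these data known. Lists were compiled from general knowledge and can overlap. The placing of symbols and the calls were tested on simulated data. Analyses used Python 3.11.15, numpy 2.4.6 and scipy 1.17.1.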

Additional observations from a re-analysis of the deposited data

How the results depend on the processing

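With 1 library per genotype, depth and the lack of replicates limit all results, and leaving out a replicate was not possible. The 8 counts were recomputed under 11 other settings, 2 of them chosen after the data were seen (the row rule per library, and leaving out cells with at least 10 globin or Sertoli UMIs). Of 88 values 66 lay within 1.5 times the reported count. Against Sd1, a minimum of 200 UMIs gave 385 genes higher, and without the rule for rows in fewer than 5 cells (2207 genes read) 362 were higher and 88 lower. Both settings read fewer genes than the 4054 of the reported setting, so a lower count need not be a lower share. Against Sd3, these settings gave 126 higher, and 118 higher and 399 lower. The genes higher than both neighbours numbered 41 at a minimum of 20 UMIs, 11 at 200, 15 when centred on the median gene and 10 without the row rule. KO against WT moved most. Genes higher and lower in KO numbered 23 and 39 at a minimum of 20 UMIs, 2 and 0 at 200, 13 and 15 by the mean over cells, 61 and 40 with cells thinned to 3000 UMIs, and 4 and 4 without the row rule. The higher genes numbered 5 with a prior of 10 UMIs and 4 without the cells named above. No paired analysis was possible because each genotype has 1 library.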
